A study of Mus musculus with 9 samples.

Results

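The solute carriers that move nutrients, hormones and organic anions across brain endothelium were followed through the accessible chromatin of mouse brain endothelial cells (ECs). The group consisted of 10 genes, namely Slc2a1, Slc7a5, Slc3a2, Slc16a1, Slco1a4, Slco1c1, Slc7a1, Slc38a5, Slc22a8 and Slc6a6. Every peak that the deposited annotation assigned to one of these genes was taken, together with every peak lying over one of their transcription start sites (TSSs). This gave 454 of 253457 peaks, of which 439 carried the name of a member and 15 lay over a member's TSS under the name of another gene. Peaks of different libraries sharing at least 1 bp were merged, which placed the 454 peaks in 114 of 92495 regions.

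The study asked how loss of the transcription factor KLF4 from ECs, and aging, alter chromatin accessibility. Omni-ATAC-seq, an assay that uses a transposase to cut and tag open chromatin, was applied to EC nuclei from young and old mice of both genotypes. The young WT Cre (n = 2) and old WT Cre (n = 2) groups, labelled CdH5CRE, carried the Cre driver with intact Klf4. The young EC-K4KO (n = 3) and old EC-K4KO (n = 2) groups, labelled ECK4KO, carried the same driver with floxed Klf4. In the methods of the study the driver is a tamoxifen-inducible Cre under the Cdh5 promoter, which is active in ECs throughout the body, and both genotypes received tamoxifen. The labels give age as young or old only and do not say whether replicates came from separate animals, so that p-values measure the spread between these libraries, which may be technical.

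ECs of the brain are joined by tight junctions, and polar nutrients reach the brain mostly through carriers in their membranes. A facilitative carrier passes glucose down its gradient, and others couple transport to sodium or exchange large neutral amino acids, organic anions and hormones. Open chromatin at a TSS usually marks a promoter, and open chromatin elsewhere may mark an enhancer, although the nearest gene need not be its target.

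Lists ranged from 6157 to 45026 peaks, and no read counts were used, which leaves sequencing depth unknown. Library names carried 2 prefixes and 0 of these held both ages, so batch and age cannot be told apart. A peak lay over the TSS of Klf4 in all 9 lists, which does not test the deletion. Of 10 endothelial markers, 6 to 10 had a peak over a TSS per list, against 0 to 3 of 6 pericyte and mural markers, 0 to 3 of 6 astrocyte markers, 0 to 1 of 6 neuron markers and 0 of 6 for both microglia and oligodendrocytes. The highest mural and astrocyte counts were in old EC-K4KO lists, and their part in the results was not tested. Among the 6157 strongest peaks of each list by -log10 p, 5 to 6 endothelial markers had a TSS peak. For the markers of the other cell types the number was 0 in every list.

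Members were found mostly as distal peaks, and their number followed the length of the list. Only 80 of the 454 peaks lay over a TSS, and the other 374 were classed as intron (205), intergenic (148), exon (10), promoter-TSS (9) or transcription termination site (2). Distal means not over a TSS of the GENCODE set. The promoter-TSS peaks counted as distal lay over a downstream start of Slc7a1 or, in young WT Cre, just before the start of Slco1c1. This split was not compared with that of all peaks. Young WT Cre lists held 14 and 18 member peaks, young EC-K4KO lists 32, 41 and 52, old WT Cre lists 66 and 64, and old EC-K4KO lists 90 and 77. No young list reached the number in any old list. As a share of the list, however, members made up 0.227% and 0.188% in young WT Cre, 0.134%, 0.162% and 0.186% in young EC-K4KO, 0.15% and 0.197% in old WT Cre, and 0.200% and 0.197% in old EC-K4KO. Young and old lists overlapped in this share. Every young EC-K4KO share lay below those of young WT Cre and of old EC-K4KO. Among the 6157 strongest peaks of each list by -log10 p (equal list length), every list held between 12 and 17 member peaks. Distal ones numbered 9 and 10 in young WT Cre, 7, 7 and 6 in young EC-K4KO, 12 and 12 in old WT Cre, and 10 and 10 in old EC-K4KO.

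**Figure D1:**
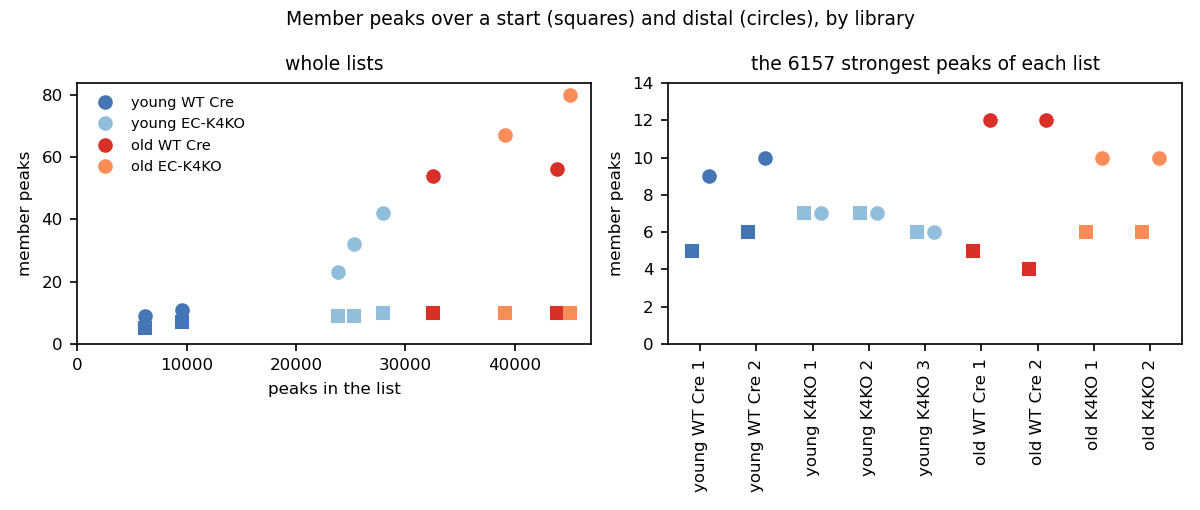
Member peaks over a TSS (squares) and distal member peaks (circles) against the number of peaks in the list (left) and in the 6157 strongest peaks of each library (right), with 1 symbol of each kind per library and EC-K4KO shortened to K4KO. Distal peaks run from 9 in the shortest list to 80 in the longest, whereas at equal list length every library holds 12 to 17 member peaks in all.

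Peaks over a TSS were found for 4 and 7 members in the young WT Cre lists, 8, 8 and 9 in young EC-K4KO, and 9 in each of the 4 old lists. Slc2a1, Slc3a2, Slc16a1 and Slc7a1 had one in all 9 lists, and Slc38a5 in none. The strength of a peak was compared by its rank in the list by the deposited -log10 p, where rank 1 is the strongest peak. Because lists differ in length, regions with a peak in all 9 libraries (common regions) were also ranked among themselves, and the difference in -log2 rank was tested with limma, so that a positive difference is a region nearer to the top in old or in EC-K4KO libraries. There were 4872 common regions, 3783 of them over a TSS, and members held 13, namely 6 over a TSS and 7 distal. Each had to be called even in the shortest list, that of young WT Cre 1 with 6157 peaks. The order by -log10 p may still depend on sequencing depth. The part of this selection and of depth in the differences was not tested. A rank in a list also depends on the length of the list, so that an order of libraries is stated below only where ranks among common regions gave the same order.

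With age, 513 of the 4872 common regions moved up (10.5%) and 505 moved down (10.4%) at a Benjamini-Hochberg adjusted p below 0.05. Ranks in whole lists gave 471 up and 1067 down, and median-centred log2 of -log10 p gave 531 up and 923 down. Of the 13 member regions, 3 moved up and 3 moved down, and their median difference was -0.12 against -0.02 over all common regions. With genotype, 1 common region moved up (0.0205%) and 10 moved down (0.205%), and none of them was a member region. The interaction of genotype and age passed in 0 of 4872 regions in limma, with an unadjusted p below 0.05 in 544 of all common regions and 2 of the 13 member regions.

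**Figure D2:**
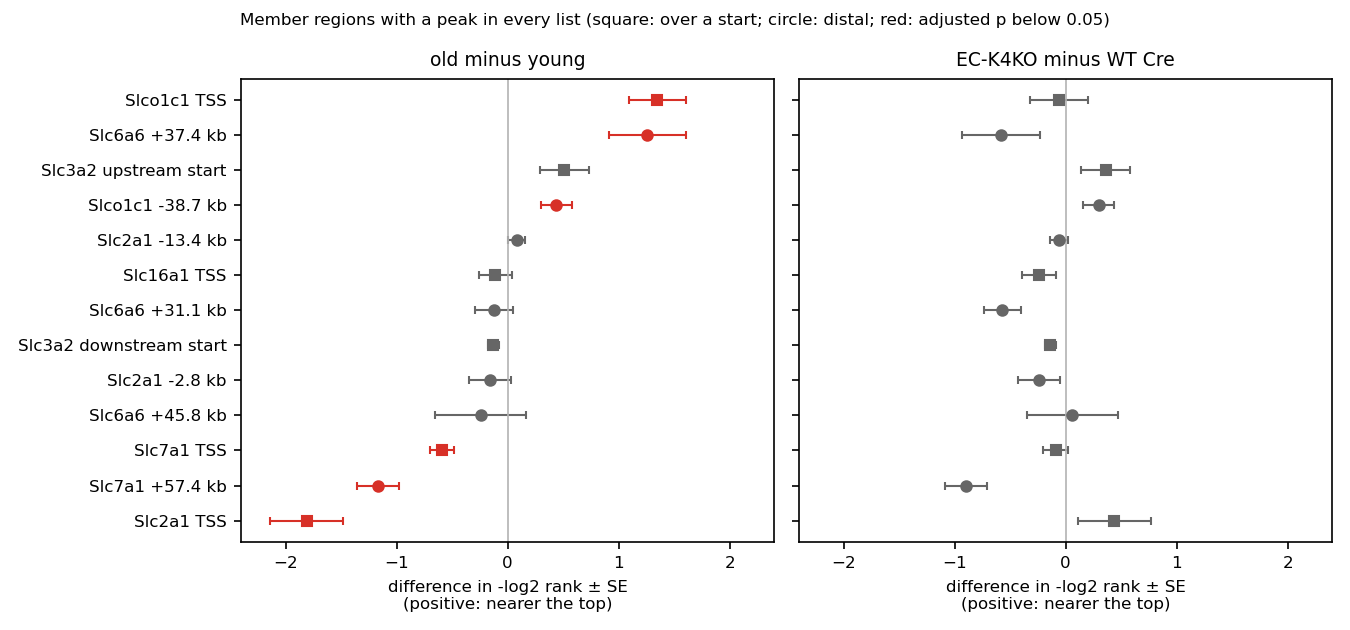
Differences in -log2 rank among common regions for the 13 member regions, old minus young (left) and EC-K4KO minus WT Cre (right), with the SE of the limma fit over 9 libraries. Squares are regions over a TSS and circles distal regions, named by distance from the TSS in kb, and red marks an adjusted p below 0.05. By age, 3 regions lie above 0 and 3 below 0 in red, from 1.35 for the Slco1c1 TSS to -1.81 for the Slc2a1 TSS, and by genotype there is no red symbol.

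Slc2a1 encodes the facilitative glucose carrier of the barrier. Its TSS region (GRCm38 chr4:119108498-119109297, over exon 1) had list ranks of 297 and 857 in young WT Cre, 253, 261 and 336 in young EC-K4KO, 1365 and 1394 in old WT Cre, and 1488 and 1219 in old EC-K4KO. All 5 young libraries placed it nearer to the top than any of the 4 old libraries. As a percentage of the list, its ranks were 4.82 and 8.93 in young WT Cre and 1.03 to 1.20 in young EC-K4KO. Old lists had 3.11 to 4.28, between the young groups. Its difference with age was -1.81 ± 0.33 (SE, adjusted p = 0.0060 in limma), which is a 3.50-fold change in rank, and its difference with genotype was 0.44 ± 0.33 (adjusted p = 0.57). The deposited fold enrichment of this peak was 6.72 and 5.64 in young WT Cre, 6.62, 8.53 and 8.23 in young EC-K4KO, 6.98 and 7.03 in old WT Cre, and 7.0 and 6.89 in old EC-K4KO. The old values of fold lay inside the range of the young ones. When common regions were ranked by fold instead, the difference with age was -1.28 (adjusted p = 0.032).

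The promoter of Slc2a1 is shown because it carried the largest age difference of the 13 regions. It is the RefSeq window on GRCm38.p6, chr4:119108495-119108794 on the plus strand, 250 bases before to 50 after the start. Capitals in this and the other printed sequences mark matches, on either strand, to 5 short motifs, namely CCNCNCCC of KLF and SP factors, CCGGAA of ETS factors, CTTTGA of TCF and LEF factors, GTAAACA of FOX factors and ATTGTT of SOX factors. Here both matches are of the KLF and SP kind and overlap.
Slc2a1 promoter: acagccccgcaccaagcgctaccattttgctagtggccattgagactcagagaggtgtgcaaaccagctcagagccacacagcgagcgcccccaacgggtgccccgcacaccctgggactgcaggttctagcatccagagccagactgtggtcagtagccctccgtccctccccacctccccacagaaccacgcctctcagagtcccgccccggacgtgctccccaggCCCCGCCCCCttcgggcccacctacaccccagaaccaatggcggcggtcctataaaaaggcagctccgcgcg

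Both further common regions of Slc2a1 lay upstream and were intergenic. The region 2.84 kb upstream (chr4:119105749-119106101) had list ranks of 1942 and 2743 in young WT Cre, 2593, 3484 and 2862 in young EC-K4KO, 2487 and 3422 in old WT Cre, and 3177 and 3992 in old EC-K4KO. The region 13.4 kb upstream (chr4:119094879-119095697) ranged from 3758 to 9361 over the 9 lists. Young and old libraries overlapped in both regions, and neither passed by age (-0.16 ± 0.19, adjusted p = 0.55, and 0.08 ± 0.08, adjusted p = 0.47). A region 16.7 kb downstream in intron 2 (chr4:119124898-119126271) was weak, absent from both young WT Cre lists and ranked between 18078 and 32620 in the other 7.

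Slc7a5 and Slc3a2 encode the light and the heavy chain of the exchanger of large neutral amino acids. The Slc7a5 TSS region (chr8:121907283-121908228) had no peak in young WT Cre 1, a rank of 6245 in young WT Cre 2, 4982, 5339 and 4228 in young EC-K4KO, 7355 and 7961 in old WT Cre, and 7758 and 8397 in old EC-K4KO. As a percentage of the list these ranks were 20.9, 21.1 and 15.1 in young EC-K4KO and 16.8, 24.5, 17.2 and 21.5 in the old lists, so that young EC-K4KO and old libraries overlapped. This region is shared with the start of BC048644, whose name some lists give it. Intronic regions 14.7 kb (chr8:121892698-121893312) and 9.03 kb (chr8:121897980-121899303) inside Slc7a5 were in all 7 lists other than young WT Cre, at ranks of 6940 to 11564 and 10743 to 22194.

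Slc3a2 had 2 common regions over annotated starts. The upstream start (chr19:8722923-8723611), which also faces the start of Snhg1 and carried its name in the lists, had ranks of 2220 and 3410 in young WT Cre, 2098, 1795 and 1472 in young EC-K4KO, 1515 and 1741 in old WT Cre, and 1331 and 1624 in old EC-K4KO. The downstream start (chr19:8712920-8714114) had ranks of 4123 and 5107 in young WT Cre, 11825, 8567 and 8556 in young EC-K4KO, 10217 and 10694 in old WT Cre, and 11634 and 12357 in old EC-K4KO. The upstream start was the stronger peak in every list, and both young WT Cre lists stood apart in each region, low at the upstream and high at the downstream start. As a percentage of the list, however, young WT Cre lay furthest from the top at the downstream start (67.0 and 53.2, against 23.3 to 49.6 elsewhere). Among common regions neither start passed by age (0.51 ± 0.22, adjusted p = 0.12, and -0.13 ± 0.05, adjusted p = 0.065) or by genotype (0.36 ± 0.22, adjusted p = 0.48, and -0.14 ± 0.05, adjusted p = 0.17). The age difference of the downstream start passed on the scale of log2 -log10 p (-0.76, adjusted p = 0.0027), with ranks in whole lists (-0.76, adjusted p = 0.0048) and without young WT Cre 1 (-0.12, adjusted p = 0.037) or young WT Cre 2 (-0.14, adjusted p = 0.018), and its genotype difference passed without young WT Cre 2 (-0.16, adjusted p = 0.031). The age difference of the upstream start passed with ranks by fold (1.34, adjusted p = 0.036).

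Slc7a1 encodes a carrier of cationic amino acids such as arginine, and its peaks lay over starts that RefSeq places 7089 bases apart. The upstream start (chr5:148399014-148400222), which GENCODE lists too, had ranks of 2805 and 2721 in young WT Cre, 4583, 3857 and 3110 in young EC-K4KO, 11039 and 7809 in old WT Cre, and 7578 and 6634 in old EC-K4KO. All 5 young lists placed it nearer to the top than all 4 old lists, and its age difference among common regions was -0.59 ± 0.11 (adjusted p = 0.0059). As a percentage of the list, young and old ranks overlapped (11.1 to 45.6 and 16.8 to 25.1). The downstream start (chr5:148392485-148393347) had no peak in either young WT Cre list, and ranks of 7849, 6076 and 7303 in young EC-K4KO, 4057 and 6064 in old WT Cre, and 3151 and 2674 in old EC-K4KO. The upstream start was therefore the stronger in all 5 young lists and the downstream start in all 4 old lists, by -log10 p and by fold alike. The rank of the upstream start divided by that of the downstream start was 0.584, 0.635 and 0.426 in young EC-K4KO, 2.72 and 1.29 in old WT Cre, and 2.4 and 2.48 in old EC-K4KO. This order was noticed after the values were seen, and it was not tested.

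**Figure D3:**
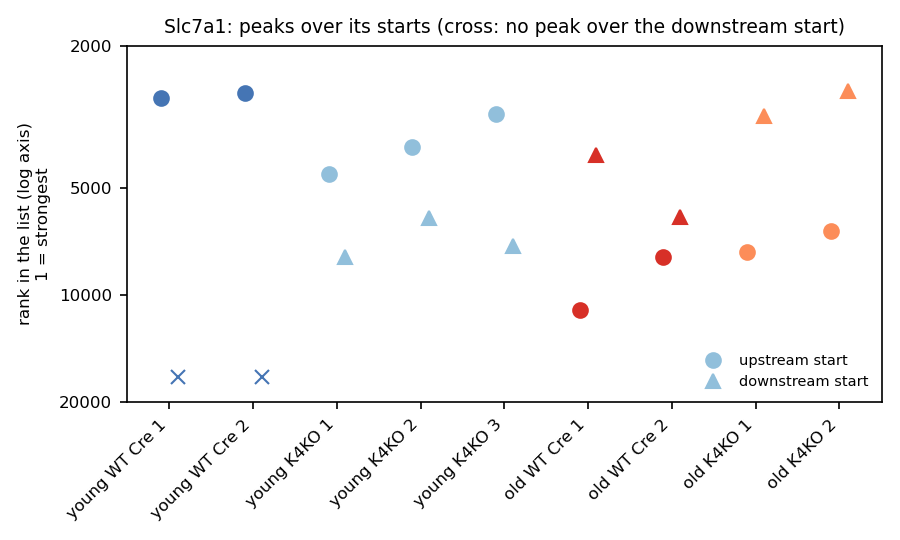
List rank by -log10 p (log axis, 1 is the strongest peak, drawn upward) of the peaks over the upstream start (circles) and the downstream start (triangles) of Slc7a1 in each library, with EC-K4KO shortened to K4KO and a cross where a list has no peak. Circles lie above triangles in the young lists and below them in the 4 old lists.

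Both promoter windows are shown because the strength of their peaks exchanged order, and both are on the minus strand of chromosome 5 in RefSeq on GRCm38.p6. The upstream window, chr5:148399855-148400154, holds 2 KLF and SP matches, and the downstream window, chr5:148392766-148393065, holds 1 KLF and SP match, 3 TCF and LEF matches and 1 SOX match. Their GC contents were 65.0% and 51.7%.
Slc7a1 upstream promoter: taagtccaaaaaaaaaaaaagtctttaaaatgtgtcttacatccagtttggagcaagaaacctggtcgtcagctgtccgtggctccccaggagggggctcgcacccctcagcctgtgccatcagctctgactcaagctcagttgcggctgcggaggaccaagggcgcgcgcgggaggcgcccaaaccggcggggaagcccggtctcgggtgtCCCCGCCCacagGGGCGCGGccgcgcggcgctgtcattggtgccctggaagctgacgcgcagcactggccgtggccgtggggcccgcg
Slc7a1 downstream promoter: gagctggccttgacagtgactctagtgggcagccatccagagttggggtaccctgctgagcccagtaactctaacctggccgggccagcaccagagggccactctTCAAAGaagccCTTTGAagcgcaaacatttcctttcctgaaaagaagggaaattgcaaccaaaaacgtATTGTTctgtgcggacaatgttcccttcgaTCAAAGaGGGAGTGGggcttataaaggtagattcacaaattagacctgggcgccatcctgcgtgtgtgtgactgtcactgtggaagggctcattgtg

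Intron 6 of Slc7a1, 57.4 kb downstream of the TSS, held a distal region called in all 9 lists (chr5:148342132-148342818). Ranks were 731 and 930 in young WT Cre, 2436, 3191 and 2973 in young EC-K4KO, 3622 and 4177 in old WT Cre, and 4725 and 4597 in old EC-K4KO. Both young WT Cre lists placed it nearer to the top than the other 7, and all young lists did so relative to all old lists. As a percentage of the list these ranks overlapped. They were 11.9 and 9.69 in young WT Cre, 10.2 to 12.6 in young EC-K4KO and 8.25 to 12.8 in the old lists. The age difference was -1.17 ± 0.19 (adjusted p = 0.0045). The genotype difference was -0.90 ± 0.19 and missed the threshold (adjusted p = 0.064), whereas ranks in whole lists gave -1.02 (adjusted p = 0.031). It also passed without young WT Cre 1 (-0.82, adjusted p = 0.025) or young WT Cre 2 (-0.99, adjusted p = 0.010). The interaction of genotype and age was 1.53 ± 0.38 (unadjusted p = 0.00203, adjusted p = 0.30). The window of 300 bases at the middle of this region, chr5:148342312-148342611 on the plus strand, is shown for that reason and holds 2 KLF and SP matches.
Slc7a1 intron 6: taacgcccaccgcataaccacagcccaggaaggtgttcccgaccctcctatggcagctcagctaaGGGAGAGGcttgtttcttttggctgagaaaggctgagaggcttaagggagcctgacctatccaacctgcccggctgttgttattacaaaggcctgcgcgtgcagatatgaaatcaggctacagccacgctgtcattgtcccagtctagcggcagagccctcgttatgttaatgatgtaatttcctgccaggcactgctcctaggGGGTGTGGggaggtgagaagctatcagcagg

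Slc38a5 encodes a glutamine carrier and had 0 peaks in all 9 lists, by name or over its TSSs. The nearest peak was 10202 to 18474 bp from its starts in 8 lists and 125379 bp in young WT Cre 1, and carried the name of Ftsj1 or Rbm3os. Without read counts this says only that no peak was called.

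Slc6a6 encodes the taurine carrier and held the strongest member region of the old lists. Region 37.4 kb downstream in intron 2 (chr6:91721207-91721897) had ranks of 283 and 416 in young WT Cre, 351, 593 and 487 in young EC-K4KO, 187 and 90 in old WT Cre, and 227 and 201 in old EC-K4KO. All 4 old lists placed it nearer to the top than the 5 young lists. The age difference was 1.26 ± 0.35 (adjusted p = 0.028), but it was lost with the replicate number as a block (1.24, adjusted p = 0.057) and turned to -0.15 (adjusted p = 0.82) when regions were ranked by fold. It was also lost on the scale of log2 -log10 p (0.34, adjusted p = 0.077) and without old EC-K4KO 1 (1.30, adjusted p = 0.088), old EC-K4KO 2 (1.22, adjusted p = 0.11), old WT Cre 2 (1.00, adjusted p = 0.10) or young EC-K4KO 2 (1.17, adjusted p = 0.062). Its middle window, chr6:91721371-91721670 on the plus strand, is shown as the strongest distal member and holds 1 KLF and SP and 2 SOX matches.
Slc6a6 intron 2: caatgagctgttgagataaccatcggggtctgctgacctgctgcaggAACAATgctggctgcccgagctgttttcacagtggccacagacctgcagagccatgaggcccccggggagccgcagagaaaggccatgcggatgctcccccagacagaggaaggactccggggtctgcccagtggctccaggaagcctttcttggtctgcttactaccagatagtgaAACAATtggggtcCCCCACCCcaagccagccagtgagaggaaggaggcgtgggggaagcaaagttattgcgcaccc

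Further regions of Slc6a6 lay in the same gene body. Common regions 31.1 kb downstream in intron 2 (chr6:91715004-91715555) and 45.8 kb downstream in intron 5 (chr6:91729142-91730307) ranked between 1855 and 8887 and between 510 and 1836, and neither passed by age (-0.12 ± 0.17, adjusted p = 0.64, and -0.24 ± 0.41, adjusted p = 0.69). The TSS region itself (chr6:91683727-91684365) was not called in young WT Cre 1 and ranked 5910 in young WT Cre 2, 6032, 3958 and 4487 in young EC-K4KO, 4923 and 6295 in old WT Cre, and 5141 and 4889 in old EC-K4KO. Groups overlapped at the TSS, and in every list the intronic region at 37.4 kb ranked nearer to the top than the TSS.

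Slc16a1 encodes a monocarboxylate carrier for lactate and ketone bodies. Its TSS region (chr3:104638249-104639346) had ranks of 3542 and 2377 in young WT Cre, 3892, 4291 and 6241 in young EC-K4KO, 4399 and 4320 in old WT Cre, and 4234 and 5406 in old EC-K4KO. Among common regions its ranks were 3405 and 2244 in young WT Cre and 3266 to 4284 in the other 7 libraries, so that the groups overlapped, and the difference passed neither by age (-0.11 ± 0.15, adjusted p = 0.62) nor by genotype (-0.24 ± 0.15, adjusted p = 0.48). No distal region of Slc16a1 was found in young WT Cre. Its most frequent ones, 36.8 kb downstream (chr3:104674715-104675869) and 55.7 kb and 41.5 kb upstream (chr3:104582435-104583542 and chr3:104596669-104597636), were intergenic, were in all 4 old lists and ranked at 11565 or weaker.

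Slco1c1 encodes a carrier of thyroid hormone. Its TSS region (chr6:141523687-141524627) had ranks of 3741 and 3147 in young WT Cre, 2260, 3452 and 4445 in young EC-K4KO, 1474 and 828 in old WT Cre, and 1678 and 1090 in old EC-K4KO. All 4 old lists placed it nearer to the top than the 5 young lists, and the age difference was 1.35 ± 0.26 (adjusted p = 0.0073), or 1.04 (adjusted p = 0.086) with ranks by fold. The genotype difference was -0.06 ± 0.26 (adjusted p = 0.93). In young WT Cre the peak ended 127 and 10 bp before the first annotated start, and in the other 7 lists it covered that start. A region 38.7 kb upstream, inside intron 10 of Pde3a (chr6:141485320-141486091), had ranks of 4572 and 7827 in young WT Cre, 5144, 4233 and 3398 in young EC-K4KO, 3595 and 4239 in old WT Cre, and 3977 and 2581 in old EC-K4KO. Young and old ranks overlapped there, and the age difference of 0.44 ± 0.14 passed narrowly (adjusted p = 0.043) and held without young EC-K4KO 3 or young WT Cre 1 (adjusted p = 0.036 in both), but not without any 1 of the other 7 libraries (adjusted p of 0.053 to 0.17). It was also lost on the scale of log2 -log10 p (0.40, adjusted p = 0.084), with ranks by fold (0.29, adjusted p = 0.39) and with ranks in whole lists (0.50, adjusted p = 0.12).

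The Slco1c1 promoter is shown because its rank moved opposite to that of Slc2a1. The RefSeq window is chr6:141524104-141524403 on the plus strand, with a GC content of 42% against 65.3% for Slc2a1, and it holds 2 KLF and SP matches.
Slco1c1 promoter: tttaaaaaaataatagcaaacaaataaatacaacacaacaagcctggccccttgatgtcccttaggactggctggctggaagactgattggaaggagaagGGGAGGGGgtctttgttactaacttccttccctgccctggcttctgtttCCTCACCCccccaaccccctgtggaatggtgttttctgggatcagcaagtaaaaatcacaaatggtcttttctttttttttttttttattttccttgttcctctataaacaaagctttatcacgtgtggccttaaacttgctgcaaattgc

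Slco1a4 encodes a carrier of organic anions, and its peaks were mostly in old lists. It had 0 peaks in young WT Cre, 0, 2 and 5 in young EC-K4KO, 8 and 7 in old WT Cre, and 10 and 9 in old EC-K4KO. The strongest region lay 33.1 kb upstream and was intergenic (chr6:141888984-141889552), with no peak in 4 of the 5 young lists, a rank of 12030 in young EC-K4KO 3, 4960 and 4804 in old WT Cre, and 5630 and 3961 in old EC-K4KO. Old ranks thus fell within the length of even the shortest list, where the region was not called. Its TSS region (chr6:141855636-141856482) was weak, with ranks of 18356 in young EC-K4KO 3, 12700 and 15291 in old WT Cre, and 14667 and 15949 in old EC-K4KO. The upstream region is shown from its middle window, chr6:141889110-141889409 on the plus strand, and holds 1 KLF and SP and 1 TCF and LEF match.
Slco1a4 upstream region: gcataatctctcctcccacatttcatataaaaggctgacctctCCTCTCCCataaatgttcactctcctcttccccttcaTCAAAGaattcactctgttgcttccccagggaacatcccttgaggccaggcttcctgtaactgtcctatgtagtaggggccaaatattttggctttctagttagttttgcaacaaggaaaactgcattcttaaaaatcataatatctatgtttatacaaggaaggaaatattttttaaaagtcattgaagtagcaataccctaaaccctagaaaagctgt

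Slc22a8 encodes a carrier of organic anions that includes many drugs. Its TSS region (chr19:8590987-8591539) was not called in young WT Cre 1 and ranked 5251 in young WT Cre 2, 6491, 9619 and 10422 in young EC-K4KO, 6172 and 6977 in old WT Cre, and 5996 and 4322 in old EC-K4KO. As a percentage of the list these ranks were 27.2 to 54.7 in the 4 young lists with a peak and 11.1 to 21.4 in the old lists, whereas the ranks themselves overlapped. The 3 distal regions that most often carried its name, 12.7 kb, 19.3 kb and 72.5 kb upstream (chr19:8578262-8578961, chr19:8571792-8572398 and chr19:8518141-8519275), were intergenic and ranked at 14290 or weaker.

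**Figure D4:**
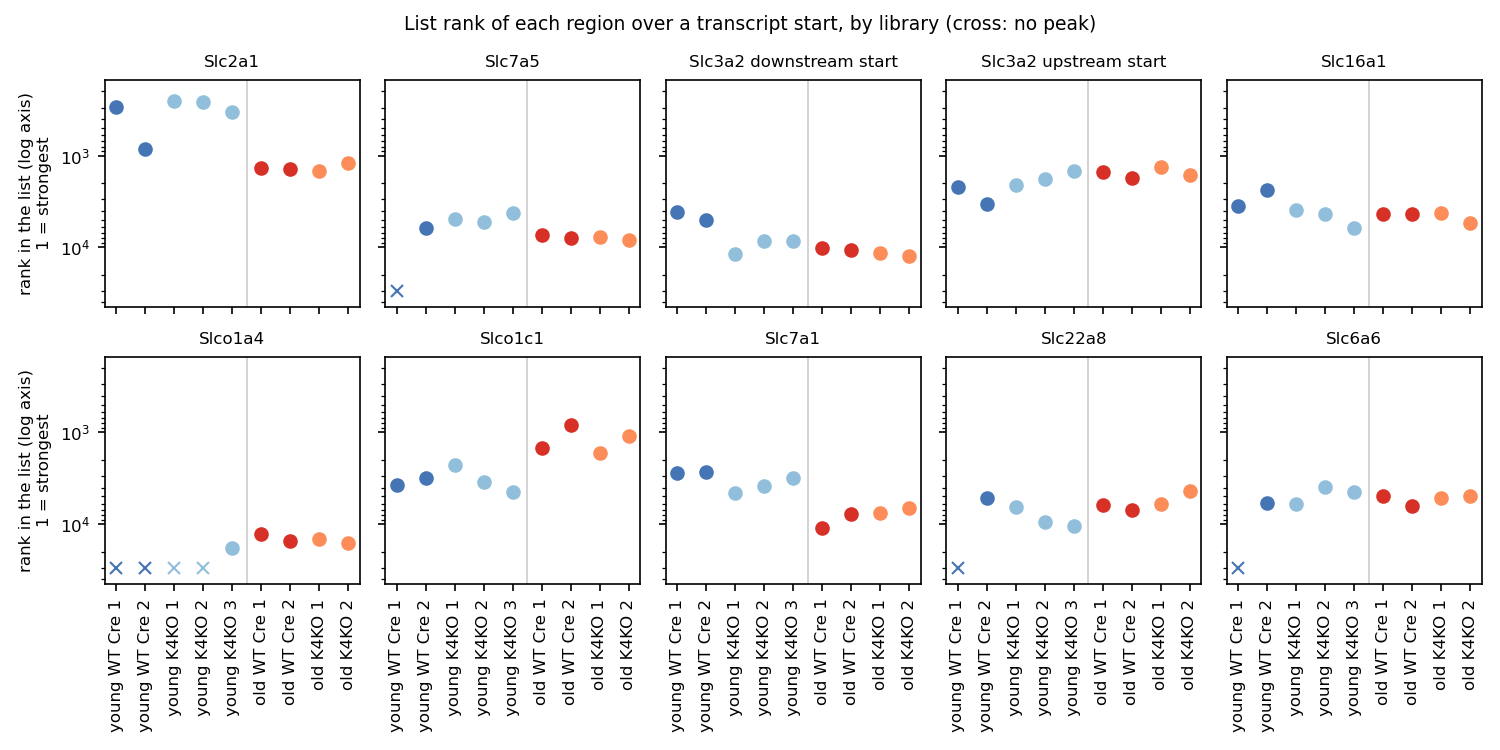
List rank by -log10 p (log axis, 1 is the strongest peak, drawn upward) of the 10 member regions over an annotated TSS in each of the 9 libraries, with EC-K4KO shortened to K4KO, a grey line between young and old, and a cross where the list has no peak. Slc2a1 is lower and Slco1c1 higher in the 4 old lists than in every young list, and Slco1a4 has crosses in 4 young lists.

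RefSeq promoter windows matched 8 members with 9 windows. The KLF and SP motif was in 8 of the 9 (88.9%) against 49.5% of 32851 promoter windows, ETS in 1 (11.1% against 14.9%), TCF and LEF in 2 (22.2% against 16.0%), FOX in 0 (against 3.65%) and SOX in 2 (22.2% against 10.7%). The KLF and SP motif is rich in C, and the GC content of the member windows ran from 40.7% to 73.7%. In the middle windows of the 7 common distal member regions the KLF and SP motif was in 6 (85.7%) against 52.0% of 1089 common distal windows, and the SOX motif in 3 (42.9% against 18.4%). A match is a run of letters and not a measured site.

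Most common regions were wider in old libraries. The width of a called peak depends on sequencing depth and background, and depth is unknown here. Median peak width over whole lists was 346 and 354 bp in young WT Cre and 388, 388 and 402 bp in young EC-K4KO. It was 375 and 431 bp in old WT Cre, and 418 and 451 bp in old EC-K4KO. The part of depth in the differences below was not tested. Covered length was greater in old libraries for 3301 of 4872 regions (67.8%) and smaller for 1 (0.0205%), with a median difference of 0.47 on the log2 scale. Of the 13 member regions, 8 were wider in old libraries, with a median difference of 0.39. With genotype, 1512 regions were wider in EC-K4KO (31.0%, median 0.35), among them 3 of the 13 member regions, whose median was 0.38. These were the Slc16a1 TSS (0.88 ± 0.16, adjusted p = 0.013), the Slc2a1 TSS (0.46 ± 0.12, adjusted p = 0.031) and the Slc7a1 intron 6 region (0.39 ± 0.11, adjusted p = 0.034). With the replicate number as a block all 3 genotype calls were lost (adjusted p = 0.051, 0.070 and 0.095). The Slc16a1 call was also lost without old EC-K4KO replicate 1 (adjusted p = 0.056) or replicate 2 (adjusted p = 0.055). The Slc2a1 call was lost without any 1 of the 4 old libraries or young EC-K4KO replicates 2 or 3 (adjusted p of 0.052 to 0.11), and the Slc7a1 call without any of the same 6 libraries (adjusted p of 0.068 to 0.12).

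Slc16a1 held the largest difference in width with genotype of the 13 member regions. Its TSS region was covered over 278 and 459 bp in young WT Cre, 944, 944 and 1028 bp in young EC-K4KO, 786 and 590 bp in old WT Cre, and 840 and 853 bp in old EC-K4KO. EC-K4KO libraries were wider than WT Cre libraries of the same age in all 5 cases. The interaction of genotype and age was -1.13 ± 0.32 and missed the threshold (adjusted p = 0.071). Over all 4872 common regions this interaction in width passed in 420 downward (8.62%) and 1 upward, and in 0 of the 13 member regions. Its median was -0.50 over all common regions and -0.49 over the member regions.

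Peak number per gene was compared by an exact permutation of labels within strata, whose smallest two-sided p over 60 arrangements is 0.0167. With age, 7 of the 9 members with a peak had more peaks in old lists at an exact p below 0.05 (Slc3a2, Slc16a1, Slco1a4, Slco1c1, Slc7a1, Slc22a8 and Slc6a6). Over all genes named in at least 1 list, 4063 of 20035 did (20.3%). These genes were not matched to the members in number of peaks, so the shares are not a like comparison. Slc38a5 had no peak and was not tested. Slc7a1 had the largest difference, with 2 and 2 peaks in young WT Cre, 7, 6 and 8 in young EC-K4KO, 12 and 12 in old WT Cre, and 17 and 13 in old EC-K4KO. Its difference was 9.0 peaks by age (exact p = 0.0167, adjusted p = 0.104) and 4.0 by genotype (exact p = 0.0167, adjusted p = 0.543). With genotype, Slco1c1, Slc7a1 and Slc6a6 had more peaks in EC-K4KO at an exact p below 0.05, against 1023 of 20035 genes (5.11%). After adjustment over all genes none of the 20035 passed by age or genotype. At equal list length Slco1a4 alone of the members kept an exact p below 0.05 by age (1.0 peak more, exact p = 0.0167), and none did by genotype. Over all 20035 genes, 119 had more and 93 fewer peaks in old lists at that threshold. By genotype, 13 had more and 18 fewer in EC-K4KO. None passed after adjustment.

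**Figure D5:**
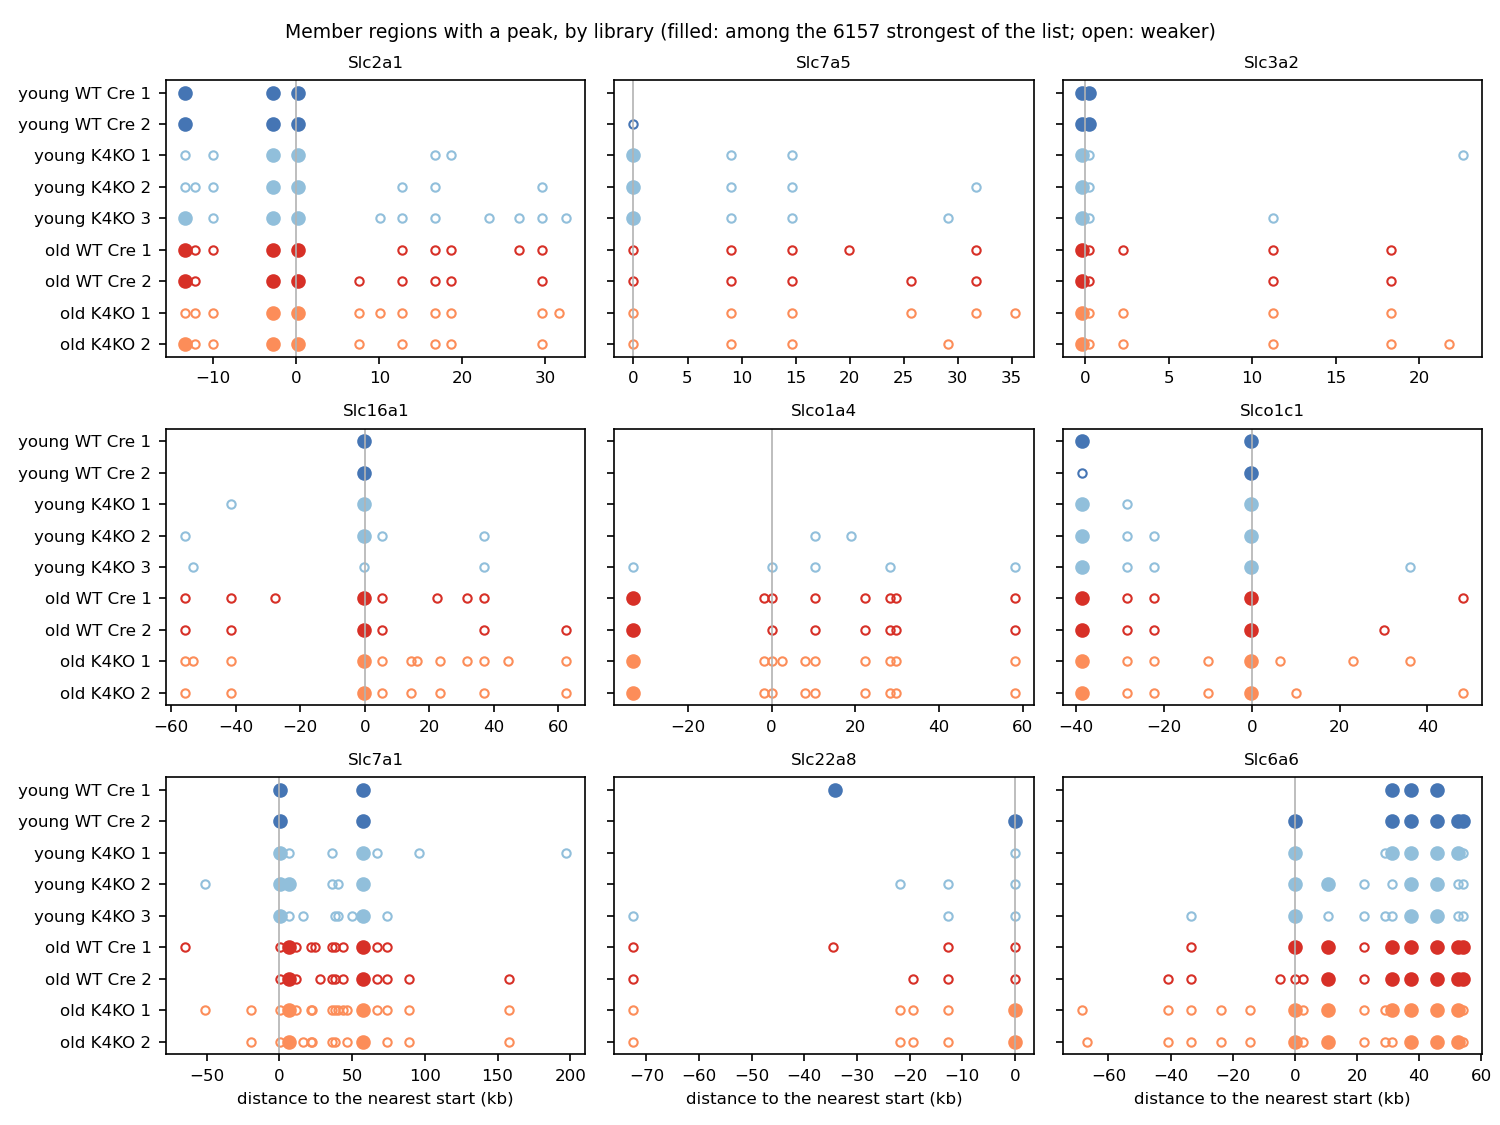
Position of the called regions of the 9 members with a peak, as distance from the nearest annotated start in kb (0 is the start, positive is downstream) for each library, with EC-K4KO shortened to K4KO. Filled symbols are peaks among the 6157 strongest of the list and open symbols weaker ones. Open symbols fill in from the young WT Cre lists at the top to the old lists at the bottom, and the Slco1a4 region 33.1 kb upstream is filled in the 4 old lists only.

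Regions gained against young WT Cre were those in every library of a group and in neither young WT Cre library, among regions found in at least 2 libraries. Members gained 6 of 87 such regions in young EC-K4KO (6.90%, against 9.53% of 39508 regions), 35 in old WT Cre (40.2% against 40.8%) and 53 in old EC-K4KO (60.9% against 62.2%). These shares were close to those of all regions. The 6 in young EC-K4KO were 2 each near Slc2a1 and Slc7a5, the downstream start of Slc7a1, and a region 28.5 kb upstream of Slco1c1 (chr6:141495641-141496180). At equal list length 1 of 21 member regions was gained in young EC-K4KO (4.76% against 3.88%), 3 in old WT Cre (14.3% against 9.29%) and 3 in old EC-K4KO (14.3% against 10.6%). Lost regions, called in both young WT Cre lists and in no library of a group at equal length, numbered 1 of 21 for members in young EC-K4KO (4.76%, background 2.23%), 2 in old WT Cre (9.52%, background 5.46%) and 2 in old EC-K4KO (9.52%, background 6.61%). The 3 gained in each old group were the downstream start of Slc7a1, the upstream region of Slco1a4 and a region 10.8 kb downstream in intron 1 of Slc6a6 (chr6:91694545-91695103). The 1 in young EC-K4KO was the TSS of Slc7a5. No exact test of 2 against 2 or 3 against 2 libraries can pass 0.05, and none was run.

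Among 18 other transporters of brain endothelium, 6 to 18 had a peak over a TSS per list, and the TSS regions of 8 were common. By age, the region of Slc40a1, the iron exporter, moved up (1.00 ± 0.24, adjusted p = 0.016), and those of the zinc carriers Slc39a10 (-1.83 ± 0.45, adjusted p = 0.017) and Slc30a1 (-0.69 ± 0.21, adjusted p = 0.037) and of the choline carrier Slc44a1 (-0.72 ± 0.21, adjusted p = 0.032) moved down. None of the 8 passed by genotype. Of 5 endothelial markers with a common TSS region, Cldn5 (-1.13 ± 0.27, adjusted p = 0.017) and Flt1 (-0.83 ± 0.21, adjusted p = 0.021) moved down with age. The other markers did not pass by age. The median age difference was -0.63 over the 8 transporters and 0.18 over the 5 markers, against -0.03 over all 3783 common TSS regions. Of those regions, 8.49% moved up and 10.8% moved down with age.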

How the data were processed

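The 9 deposited peak lists and their annotations were analysed. In the methods of the study, reads were mapped to mm10 with Bowtie2 and broad peaks were called with MACS2 in each library. Each list, as deposited by the authors, holds a score, a fold enrichment (a ratio), a -log10 p and a -log10 q for each peak, and the annotation by the authors gives a gene name, a class and a distance to the nearest TSS. Peak coordinates fitted the chromosome lengths of GRCm38. Read counts were not used here, so depth is unknown and the authors' test on counts was not run.

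TSSs came from the basic set of GENCODE M21, and promoter windows and region sequences from RefSeq and GRCm38.p6. Overlapping peaks (1 bp or more) of all libraries were joined to form regions. Ranks and log2 covered length of the 4872 common regions were fitted in limma 3.58.1 (R 4.3.3) with 4 group means and a trended prior, and p-values were adjusted by Benjamini-Hochberg over all common regions with a threshold of 0.05. Peak numbers per gene were compared by a two-sided exact permutation test within strata. Other steps used Python 3.11.15. The fit and the permutation were tested on simulated data. Same-numbered replicates of different groups correlated between -0.0381 and 0.122 in their deviations from group means. The numbers were not taken to pair libraries, although these correlations cannot exclude a pairing. The members, lists and motifs were chosen with earlier results of these data known. All members were named, with the regions over their TSSs and up to 3 distal regions each, those carrying the gene's name in most libraries. Genes of other lists were named where their TSS region passed in limma, at most 5 per list. Alternatives were rank by fold, log2 of -log10 p, rank in whole lists, q under 0.05, equal list length, a replicate block, merging within 200 bp, the width of the strongest peak, the authors' promoter-TSS class and leaving out each library.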

Additional observations from a re-analysis of the deposited data

How the results depend on the processing

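The age differences at the TSSs of Slc2a1, Slc7a1 and Slco1c1 and in intron 6 of Slc7a1 kept their direction and passed the threshold in every alternative run, except that ranking by fold ended the call of the Slco1c1 TSS (1.04, adjusted p = 0.086). Rank as a percentage of the list was not among these alternatives. On that scale young and old lists overlapped at all of these regions except the Slco1c1 TSS. Within WT Cre, old lists then lay nearer to the top than young ones at the TSSs of Slc2a1 and Slc7a1. The number of common regions called by genotype rank was 11 and became 155 on the scale of log2 -log10 p, 0 by fold, 120 with ranks in whole lists and 0 with a replicate block. Without 1 library it ran from 0 to 359, with 252 and 359 without young WT Cre replicates 1 and 2. The age count of 1018 became 1538 with ranks in whole lists and ran from 285 (without old EC-K4KO 2) to 1450 without 1 library, and the interaction count of 0 ran from 0 to 138 (without young WT Cre 2). For width, the genotype count of 1512 became 494 with the replicate block and ran from 215 to 2618 without 1 library, and the age count of 3302 ran from 1851 to 3775.

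At equal list length the genes with an exact p below 0.05 in peak number fell to 31 by genotype (from 1024) and 212 by age (from 4063), and the member regions gained to 1, 3 and 3. Without 1 library the gene counts ran from 0 to 1273 and from 0 to 4308, where 0 arises because without a young EC-K4KO library the smallest p is 0.0556, and the gains in young EC-K4KO ran from 6 to 15 (without young EC-K4KO 1). Members with a TSS peak in all 9 lists fell from 4 to 1 under the authors' promoter-TSS class and to 2 at equal list length. The cause of these changes was otherwise not tested.

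Directions that turned were of values that did not pass, other than the Slc6a6 region at 37.4 kb (age by fold, -0.15). By age these were Slc2a1 at 13.4 kb (whole lists, -0.02) and Slc6a6 at 31.1 kb (fold, 0.11). By genotype they were Slc2a1 TSS (fold, -0.48), Slco1c1 TSS (replicate block, 0.02), Slc7a1 TSS (log2 -log10 p, 0.09) and Slc6a6 at 45.8 kb (fold, -0.28). Without 1 library, the age difference ran from -0.26 to 0.04 at the Slc16a1 TSS, -0.33 to 0.09 at Slc6a6 31.1 kb and -0.55 to 0.06 at Slc6a6 45.8 kb, and the genotype difference from -0.26 to 0.13 at the Slco1c1 TSS and -0.25 to 0.37 at Slc6a6 45.8 kb. With the replicate block, the age call in width at the Slc3a2 upstream start was also lost (0.25, adjusted p = 0.062). Of 12 same-numbered pairs, 3 correlated above 0.1. In groups of 2 libraries the deviations mirror each other, so these correlations cannot decide whether replicate numbers pair the libraries.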
